A study of Mus musculus with 24 samples.

Results

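Brca1, Psmd3, Psmc5, Psmd12, Sumo2, Jmjd6, Srsf2, Grb2, Prkar1a and Nup85 lie on mouse chromosome 11 beyond Igf2bp1, towards the chromosome end, in the stretch that matches the long arm of human chromosome 17. They were found by their symbols in the gene column of the table of expression values, which held 10 of 10 among 21833 genes. All 10 passed the filter on low values, which left 10171 genes, but Brca1 passed only through tumors that reached 1 FPKM. FPKM is the number of fragments per kilobase of gene and per 1000000 counted reads, so levels can be set side by side between genes of different length.

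Gain of the long arm of chromosome 17 is the most common chromosomal change in high-risk neuroblastoma, a childhood tumor of the sympatho-adrenal lineage. An extra copy of a chromosome stretch usually raises the RNA of the genes on it together, and genes used by nearly all cells are therefore read as a marker of dosage. Such genes also have other inputs, since some of them are made in larger amounts in dividing cells.

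PolyA RNA was measured in 24 libraries from mice backcrossed to C57Bl6/N. The transgenes sat in the Rosa26 locus behind a loxP-flanked stop, were driven by the CAG promoter and carried the human reading frames of IGF2BP1 with iRFP or MYCN with luciferase, and Dbh-iCre opened them in sympatho-adrenal cells. AG were 3 adrenal glands of CRE - mice, AGM were 5 tumor-free adrenal glands of MYCN +/-, CRE + mice, TI were 8 neuroblastomas of IGF2BP1 mice (7 IGF2BP1 +/+, CRE + and 1 IGF2BP1 +/-, CRE +), and TIM were 8 neuroblastomas labelled IMP1/MYCN, CRE +. The AG mice lacked Cre and the AGM mice carried it, no group carried Cre alone, and each AGM and TIM library came from another sequencing run than the 3 AG libraries, so that run and group cannot be told apart there. TI held 6 of its 8 libraries from the AG run and TIM held none, so that run and group are also largely mixed in TIM against TI. The table columns show a group but not the run, the genotype or the site of a library, and libraries are numbered here by column order, as a name only.

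In AG and TI, 12468968 to 21353172 reads were recovered per library. In AGM and TIM, 126 genes above 1000 FPKM in at least 1 library held 64.5% to 98.6% of the recovered reads, and the other genes held 14531715 to 23683176 reads, close to the totals of AG and TI. None of the members was among those 126 genes. Mouse Igf2bp1 itself had at most 81 reads in any library, and the human transgenes were not features of the table. Markers of the adrenal cortex, 7 genes with Star and Cyp11a1 among them, summed to 449 to 458 FPKM in AG and 2447 to 3444 FPKM in AGM, against a range of 0.493 to 10.4 FPKM among TI tumors and 1.28 to 7.75 FPKM among TIM tumors, so the glands and the tumors differed in cell types. A list of 8 adrenergic markers, with Th, Dbh and Chga among them, summed to 139 to 200.4 FPKM in AG and 1279 to 2152 FPKM in AGM. The tumors spread from 193 to 1761 FPKM (TI) and from 215 to 4650 FPKM (TIM). Median sums were 187 FPKM in AG, 1518 in AGM, 471 in TI and 848 in TIM, so AGM glands exceeded the median tumor. In such bulk samples, fewer cells of a type and less RNA per cell cannot be told apart.

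The members lay from 2.73 megabases (Psmd3) to 20.9 megabases (Srsf2) beyond the start of Igf2bp1, which spans chr11:95847989-95896911 on the minus strand (GRCm39). Sumo2, Nup85 and Grb2 lay close together, 19.6 to 19.7 megabases from Igf2bp1, and Jmjd6 and Srsf2 lay at 20.9 megabases with the start of Mettl23 between theirs. Psmc5 overlaps Smarcd2, Prkar1a overlaps Fam20a, Jmjd6 overlaps Mettl23, and Srsf2 overlaps Mettl23 and Mfsd11, each partner on the opposite strand. The libraries were strand-specific, but the strand setting of the counting was not given in the sources used here, so reads in the overlaps are of uncertain origin.

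The 300 bases before the start of each member's canonical transcript, which is 1 of several annotated starts for some genes, were searched on both strands for the E-box CACGTG, which MYC and MYCN proteins bind with their partner MAX, for the cell cycle element CHR (TTTGAA or TTCGAA) and for E2F words (TTTCCCGC, TTTCGCGC, TTTGCCGC or TTTGGCGC). The canonical start of Prkar1a lay 28.0 kilobases inside the full span of the gene, in a stretch that other Prkar1a transcripts cover. That of Grb2 lay 0.721 kilobases inside, so the windows of Prkar1a and Grb2 lie within the gene. The canonical starts of Psmd12, Srsf2 and Brca1 lay 0.062, 0.006 and 0.001 kilobases inside the span. The windows of these genes overlap the gene only in part. The E-box was found in 1 of 10 members, Prkar1a, and in 8.85% of 10160 tested genes with a window. The CHR letters were found in 1 of 10 members, Jmjd6, and in 17.4% of the tested genes. None of the 10 windows held an E2F word, against 3.59% of the tested genes. The stretches that hold the matches are printed from GRCm39 with the matched letters in capitals, Prkar1a from chr11:109541294-109541323 on the plus strand and Jmjd6 from chr11:116734776-116734861 on the minus strand, where TTCAAA is the reverse complement of TTTGAA.
Prkar1a: accgaatcgtccCACGTGggtctgcggtag
Jmjd6: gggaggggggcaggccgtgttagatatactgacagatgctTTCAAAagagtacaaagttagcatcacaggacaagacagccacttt
These matches are letters in a window, and binding was not measured. No 2 members shared a match to the same element.

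**Figure D1:**
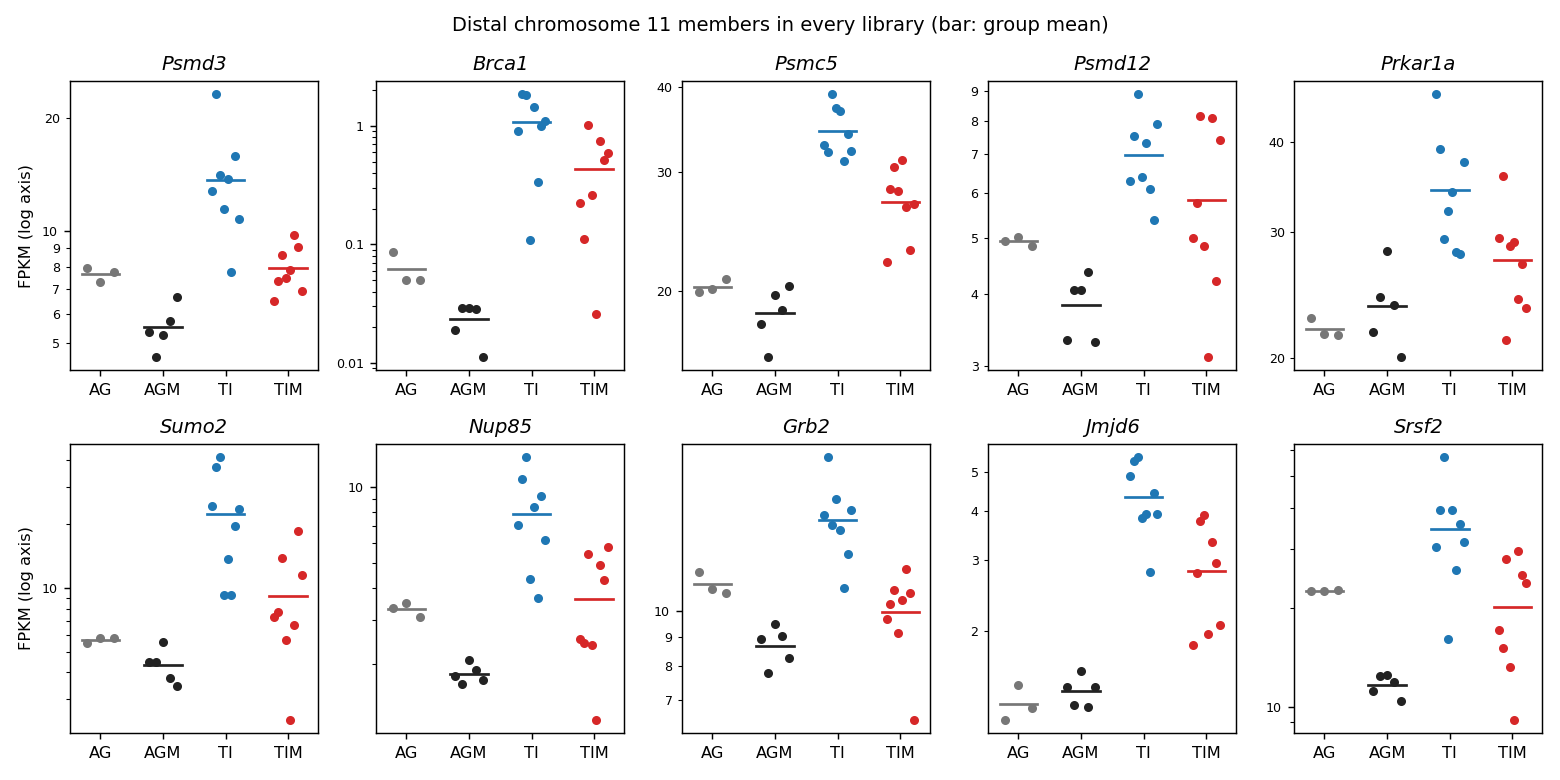
FPKM of the 10 members in each library on log axes, ordered along chromosome 11, with 1 point per library and a bar at the group mean, for AG (n = 3), AGM (n = 5), TI (n = 8) and TIM (n = 8). The TI points lie above all AG points for 7 members and the TIM points overlap the TI points for each of the 10.

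In TI against AG, the question was whether genes of this stretch were higher in IGF2BP1 tumors than in glands. Of the 9 members other than Brca1, 6 rose at a limma FDR below 0.05, where 24.6% of all tested genes did. Brca1 also rose, but it was tested only because tumors reached the filter, so it is left out of these counts. The 9 log2 fold changes were positive, with a median of 0.71 on the log2(FPKM + 1) scale, where the median of all tested genes was 0.00. Among the 3464 genes with at least 1 FPKM in every library, which hold these 9 members, 6 of 9 passed against 23.5% of genes. For 6 of the 9 every TI library was above every AG library, which held for 23.8% of all tested genes. Grb2, Psmd12 and Srsf2 did not pass the test. The other 323 tested genes from Igf2bp1 to the chromosome end had a median of 0.29, and 38.1% of them rose while 21.4% fell.

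In TIM against AG, 2 of the 9 members rose, Jmjd6 and Psmc5, where 22.5% of all tested genes rose. The median log2 fold change of the 9 was 0.15. In TIM against TI, 7 of the 9 were lower, as was Brca1, against 12.9% of all tested genes, and all 10 values were negative, with a median of -0.50 over the 9. Of the 8 TI libraries 6 came from the AG run and no TIM library did, and the columns do not show the run, so no value within a run could be given and run and group cannot be fully told apart in this comparison. No member had all TIM libraries below all TI libraries, and only 0.787% of the tested genes did. TI and TIM were set against the same 3 AG libraries, so those comparisons share their controls.

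**Figure D2:**
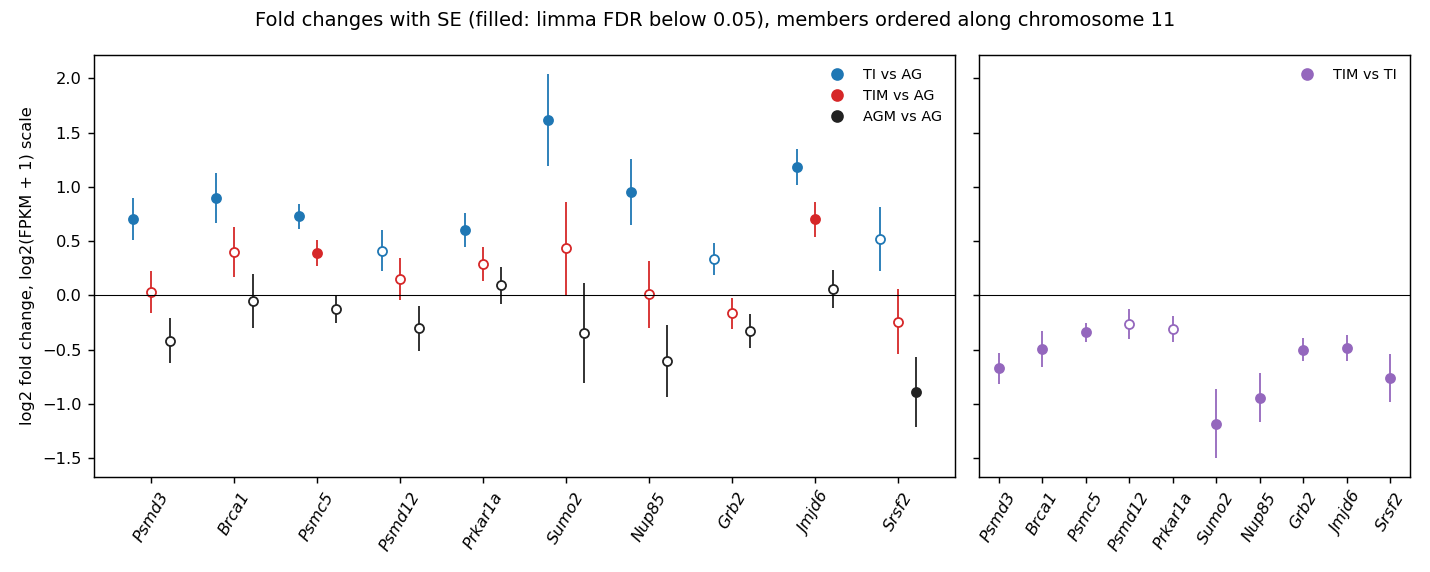
Log2 fold changes of the 10 members on the log2(FPKM + 1) scale with SE as bars, ordered along chromosome 11, for TI, TIM and AGM against AG on the left and TIM against TI on the right. Filled points have a limma FDR below 0.05; 7 of the TI points, 2 of the TIM points and 1 AGM point are filled on the left and 8 points on the right.

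Psmd3, Psmc5 and Psmd12 encode subunits of the 19S cap of the 26S proteasome, which takes up ubiquitin-tagged proteins for degradation. Psmc5 (ENSMUSG00000020708, chr11:106146951-106156291, plus strand) is one of the ATPases of the cap. It measured 19.9, 20.1 and 20.9 FPKM in AG and 17.9, 16.01, 19.7, 18.8 and 20.4 FPKM in AGM. In TI it ran from 31.1 through a median of 33.4 to 39.03 FPKM, and in TIM from 22.1 through 27.5 to 31.3 FPKM. Both tumor groups lay above all glands, and 7 of 8 TIM libraries were below the lowest TI library. Psmc5 rose by 0.73 ± 0.12 in TI against AG (log2 fold change ± SE; limma FDR 1.92e-05) and by 0.39 ± 0.12 in TIM against AG (limma FDR 0.00852), and TIM against TI gave -0.34 ± 0.09 (limma FDR 0.00856). It varied least of the members among TI tumors, with a coefficient of variation of 8.49%, where the median tested gene had 30.4%.

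Psmd3 (ENSMUSG00000017221, chr11:98573362-98586812, plus strand), a scaffold subunit of the cap, measured 7.94, 7.30 and 7.77 FPKM in AG and 5.37, 4.59, 5.25, 5.74 and 6.64 FPKM in AGM. TI ran from 7.75 through a median of 13.2 to 23.2 FPKM, and TIM from 6.47 through 7.65 to 9.75 FPKM. Of the TI tumors, 7 were above all AG glands, TI 6 was within their range, and TI 2 was the highest. The rise in TI against AG was 0.71 ± 0.19 (limma FDR 0.00394), TIM against AG gave 0.03 ± 0.19 (limma FDR 0.911), and TIM against TI gave -0.67 ± 0.14 (limma FDR 0.00231). The TIM against AG value changed sign with another library scaling, to -0.11.

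Psmd12 (ENSMUSG00000020720, chr11:107370246-107395206, plus strand), also a scaffold subunit, measured 4.95, 5.02 and 4.84 FPKM in AG and 3.33, 4.07, 4.06, 4.37 and 3.30 FPKM in AGM. TI ran from 5.39 through a median of 6.86 to 8.90 FPKM and TIM from 3.11 through 5.38 to 8.15 FPKM. All TI tumors were above all AG glands by a small margin, and TIM spanned the glands and the TI tumors. Neither TI against AG (0.41 ± 0.19; limma FDR 0.0730) nor TIM against TI (-0.26 ± 0.14; limma FDR 0.180) passed the test. The TI against AG value passed when only AG and TI set the spread (limma FDR 0.0153).

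The proteasome subunits elsewhere in the genome were set beside these 3. Of 27 other 26S subunits outside the stretch, 2 rose and 2 fell in TI against AG and the median log2 fold change was 0.00. The falls were Psmb5, a catalytic subunit of the core, with 44.3 ± 0.770 FPKM in AG and 21.8 ± 4.39 FPKM in TI (mean ± SD; difference -1.01 on the log2 scale, limma FDR 0.000104), and Psmd2, with 16.1 ± 0.171 and 11.4 ± 1.32 FPKM (difference -0.47, limma FDR 0.00515). Psmb3, a core subunit and the one other subunit inside the stretch, had 12.8 ± 0.549 FPKM in AG and 20.9 ± 5.33 FPKM in TI (difference 0.63, limma FDR 0.0115). Psmb3 was lower in TIM than in TI by -0.54 (limma FDR 0.0130), while of the 27 subunits outside the stretch 4 were lower and 1 was higher. Among those 4 were Psmb6 (-0.51, limma FDR 0.0204) and Psmd11 (-0.41, limma FDR 0.0228), which lie on chromosome 11 before Igf2bp1.

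Sumo2 (ENSMUSG00000020738, chr11:115410892-115427116, minus strand) encodes a small modifier that is attached to proteins, many of them nuclear. It measured 5.52, 5.82 and 5.80 FPKM in AG and 4.46, 4.49, 5.56, 3.75 and 3.43 FPKM in AGM. TI ran from 9.23 through a median of 21.6 to 41.5 FPKM and TIM from 2.39 through 7.49 to 18.5 FPKM. Every TI tumor was above every gland, and 5 of 8 TIM tumors were below the lowest TI tumor. On the log2(FPKM + 1) scale Sumo2 had the largest fold change of the members, 1.62 ± 0.43 in TI against AG (limma FDR 0.00295) and -1.18 ± 0.32 in TIM against TI (limma FDR 0.0103). As a ratio of mean FPKM, TI over AG was 3.91 for Sumo2 and larger for Brca1. Sumo2 has processed copies elsewhere in the genome, so the assignment of its reads is uncertain.

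Of 13 tested genes of the SUMO pathway other than Sumo2, 3 rose in TI against AG, among them Uba2, part of the activating enzyme (0.72 ± 0.21; limma FDR 0.00602), and Sumo3 (0.56 ± 0.16; limma FDR 0.00649). The median of the 13 was 0.14. In TIM against TI, Sumo3 gave 0.32 ± 0.12 (limma FDR 0.0576), where Sumo2 gave -1.18.

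Srsf2 (ENSMUSG00000034120, chr11:116740723-116744518, minus strand) encodes a serine- and arginine-rich protein that helps choose splice sites. It measured 22.4, 22.5 and 22.6 FPKM in AG and 11.2, 12.4, 12.5, 11.9 and 10.4 FPKM in AGM. TI ran from 16.1 through a median of 33.6 to 57.1 FPKM and TIM from 9.16 through 20.4 to 29.6 FPKM. TI 4 lay below all AG glands and the other 7 TI tumors above them, and TIM fell on both sides of AG. TI against AG did not pass (0.52 ± 0.30; limma FDR 0.152) and passed without TI 4 (0.66; limma FDR 0.0454). TIM against TI gave -0.76 ± 0.22 (limma FDR 0.0166), and this call was lost when only the tumors set the spread (limma FDR 0.0632).

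Among 10 other SR proteins, 3 rose in TI against AG and 5 fell in TIM against TI, with medians of 0.49 and -0.45. Srsf12 had the lowest FDR of them in TI against AG, with 0.0707 ± 0.00918 FPKM in AG and 1.545 ± 0.734 FPKM in TI (difference 1.19 on the log2 scale, limma FDR 2.78e-05), and gave -0.11 in TIM against TI (limma FDR 0.644). Srsf3 had 4.52 ± 0.0465 FPKM in AG against 9.23 ± 3.45 FPKM in TI (difference 0.82 on the log2 scale, limma FDR 0.0290) and was lower in TIM than in TI by -0.75 (limma FDR 0.0223). Srsf4 gave 0.49 and -0.48 in the same comparisons (limma FDR 0.0262 and 0.0130). None of the 10 lies in the stretch, but Srsf1 lies on chromosome 11 before Igf2bp1 and was among the falls in TIM against TI (-1.12, limma FDR 0.00444).

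Jmjd6 (ENSMUSG00000056962, chr11:116728252-116734630, minus strand) encodes an oxygen-dependent enzyme that hydroxylates lysines of splicing proteins. It measured 1.20, 1.46 and 1.28 FPKM in AG and 1.44, 1.30, 1.59, 1.29 and 1.44 FPKM in AGM. TI ran from 2.802 through a median of 4.17 to 5.45 FPKM and TIM from 1.84 through 2.87 to 3.89 FPKM. Every tumor of both groups was above every gland, and 4 of 8 TIM tumors were below the lowest TI tumor. Jmjd6 had the lowest FDR of the members in TI against AG (1.19 ± 0.16; limma FDR 2.11e-06), rose in TIM against AG (0.70 ± 0.16; limma FDR 0.00101) and was lower in TIM than in TI (-0.48 ± 0.12; limma FDR 0.00667). Of 3 genes tested as partners of its protein, 2 rose in TI against AG, U2af2 among them (0.58; limma FDR 0.00650), and Cdk9 gave -0.04 (limma FDR 0.852).

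Nup85 (ENSMUSG00000020739, chr11:115455255-115474821, plus strand) encodes a part of the Y complex, the scaffold ring of the nuclear pore. It measured 3.34, 3.49 and 3.08 FPKM in AG and 1.79, 1.67, 2.07, 1.90 and 1.73 FPKM in AGM. TI ran from 3.65 through a median of 7.74 to 13.2 FPKM and TIM from 1.20 through 3.404 to 5.80 FPKM. TI 6 was only just above the glands, TI 3 was the highest, and TIM had 4 tumors above and 4 below all AG glands. TI against AG gave 0.95 ± 0.31 (limma FDR 0.0120), TIM against AG 0.01 ± 0.31 (limma FDR 0.993) and TIM against TI -0.95 ± 0.23 (limma FDR 0.00539). The TIM against AG value turned negative under other settings, down to -0.20. Of 6 other tested genes of the Y complex, Nup107 alone rose in TI against AG, from 1.41 ± 0.104 up to 2.996 ± 0.764 FPKM in TI (log2 difference 0.70; limma FDR 0.0177).

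Brca1 (ENSMUSG00000017146, chr11:101379577-101442781, minus strand) acts in repair of DNA breaks by homologous recombination. It was the lowest of the members, at 0.0863, 0.0501 and 0.0497 FPKM in AG, from 45 to 79 reads, and at 0.0188, 0.0294, 0.0292, 0.0284 and 0.0112 FPKM in AGM, from 8 to 23 reads. TI ran from 0.110 through a median of 1.04 to 1.85 FPKM and TIM from 0.0257 through 0.386 to 1.02 FPKM. At these levels Brca1 was not broadly expressed in the glands. The mean was 17.3 times higher in TI than in AG, while the log2(FPKM + 1) scale, which understates low genes, gave 0.90 ± 0.23 (limma FDR 0.00219). TIM against TI gave -0.50 ± 0.17 (limma FDR 0.0375), a call lost in 10 of 16 fits that left out 1 tumor, and the TI against AG call was lost with limma-voom (adjusted p = 0.0962). Only 4 of 11 partners of its protein were tested, of which Babam1 and Babam2 fell (-0.67 and -0.94; limma FDR 4.95e-05 and 1.95e-07) in TI against AG.

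Grb2 (ENSMUSG00000059923, chr11:115534871-115600161, minus strand) encodes the adaptor that links receptor tyrosine kinases to the Ras exchange factor SOS. It measured 11.7, 10.9 and 10.8 FPKM in AG and 8.93, 7.79, 9.48, 9.04 and 8.29 FPKM in AGM. TI ran from 10.97 through a median of 14.5 to 18.6 FPKM and TIM from 6.45 through 10.4 to 11.8 FPKM. TI 6 was within the AG range, and 7 of 8 TIM tumors were below the lowest TI tumor. TI against AG gave 0.34 ± 0.14 (limma FDR 0.0549), TIM against AG -0.16 ± 0.14 (limma FDR 0.358) and TIM against TI -0.50 ± 0.11 (limma FDR 0.00236). TI against AG passed without TI 6 (0.39; limma FDR 0.0218), without TI 7 (0.36; limma FDR 0.0471), and when libraries were centred on genes outside chromosome 11 (0.39; limma FDR 0.0208). Of 9 Grb2 and Ras partners, 4 rose and 1 fell in TI against AG. Gab2, a docking protein, rose by 1.47 ± 0.22 (limma FDR 6.91e-06), Nras by 0.49 ± 0.15 (limma FDR 0.00783), and Ptpn11 gave -0.60 ± 0.16 (limma FDR 0.00324).

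Prkar1a (ENSMUSG00000020612, chr11:109513434-109560633, plus strand) encodes a regulatory subunit that holds protein kinase A inactive until cyclic AMP binds. It measured 22.7, 21.6 and 21.6 FPKM in AG and 21.8, 24.4, 28.2, 23.7 and 20.1 FPKM in AGM. TI ran from 28.0 through a median of 33.1 to 46.6 FPKM and TIM from 21.2 through 27.9 to 35.8 FPKM. Every TI tumor was above every AG gland, and TI 1 was the highest. TI against AG gave 0.60 ± 0.16 (limma FDR 0.00307), and neither TIM against AG (0.29 ± 0.16; limma FDR 0.137) nor TIM against TI (-0.31 ± 0.12; limma FDR 0.0587) passed. The last of these passed with 3 other processing settings and without TI 6, TI 7 or TIM 2, with values of -0.33 to -0.46. Of 5 other subunits of the kinase, 3 rose and 1 fell in TI against AG. Prkar2b fell to 3.95 ± 1.72 FPKM in TI, with 18.2 ± 3.63 FPKM in AG (difference -2.03 on the log2 scale, limma FDR 1.54e-05), Prkar1b rose by 1.503 (limma FDR 0.0107) and the catalytic Prkacb by 0.69 (limma FDR 0.0214).

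AGM against AG asked for the same genes in glands that carried MYCN but no tumor. Only Srsf2 passed the test, lower by -0.89 ± 0.32 (limma FDR 0.0414), where 14.0% of all tested genes were lower. That call was lost in each of the 8 fits that left out 1 library, with limma FDR 0.0510 to 0.104. The 5 AGM libraries were below all 3 AG libraries for 6 of 10 members, Nup85, Grb2, Psmd3, Srsf2, Brca1 and Psmd12, which was the case for 32.5% of all tested genes. With library sizes recomputed without the 126 genes of extreme level, the median of all tested genes moved from 0.00 to -0.34 and 6 members passed as lower, with a members' median of -0.81, where 31.8% of all genes tested in that setting passed as lower.

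Against AGM, the glands that carry the MYCN transgene, the TIM tumors were higher in 6 of the 9 members other than Brca1, and in Brca1, where 31.9% of all tested genes were higher. Jmjd6 (0.64 ± 0.14; limma FDR 0.000353) and Psmc5 (0.52 ± 0.10; limma FDR 0.000108) had all 8 TIM tumors above all 5 AGM glands. Grb2, Prkar1a and Sumo2 did not pass (limma FDR 0.251, 0.203 and 0.0620). With recomputed FPKM all 3 passed (Grb2 0.49, limma FDR 0.00267; Prkar1a 0.52, limma FDR 0.00548; Sumo2 1.17, limma FDR 0.0166), and 10 of 10 members were higher against 37.9% of all genes tested. The count was 9 of 10 with limma-voom, against 38.5% of genes, and 9 of 10 when libraries were centred on genes outside chromosome 11, against 37.1%. These counts are over all 10 members, with Brca1, which was tested only because tumors reached the filter. Brca1 itself did not pass with limma-voom (adjusted p = 0.117). The calls of Nup85, Brca1 and Srsf2 were lost in 9, 9 and 5 of 13 fits that left out 1 library, and that of Psmd3 without AGM 2 (limma FDR 0.0551). Whether the rise over glands differed between the models was tested as the difference of TIM over AGM and TI over AG. AG is no matched gland for TI, since the AG mice lacked Cre. In the paper, MYCN mice were culled later than the median survival of the homozygous IGF2BP1 and the double transgenic mice. Cre, age and run were not separated from the model in this test. None of the 10 members passed in limma or limma-voom, where 6.15% of all tested genes passed as lower and 3.85% as higher. In limma, 1 member, Jmjd6, was past 0.05 before adjustment (-0.55 ± 0.21; limma FDR 0.111), and 8 of 10 values were negative. Without TI 6, Jmjd6 passed (-0.61; limma FDR 0.0488).

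The members were then read tumor by tumor. Each tumor's relative expression was the median over the genes of a set of their log2 difference from the mean of the 16 tumors, less the same median over all tested genes. The other 323 tested genes of the stretch ran from -0.13 (TI 6) through a median of 0.15 to 0.42 (TI 2) in TI, and from -0.29 (TIM 8) through -0.14 to 0.02 (TIM 5) in TIM. TIM was lower than TI by -0.28 (0.15 ± 0.15 in TI and -0.13 ± 0.10 in TIM, SD, n = 8 each; exact permutation test, two-sided, p = 0.00109, adjusted over 20 regions 0.0109). The 595 tested genes of chromosome 11 before Igf2bp1 differed by -0.08 (exact permutation test, adjusted p = 0.0480), and the genes of chromosome 12, which carries Mycn, by -0.29 (exact permutation test, adjusted p = 0.00311, from the smallest p these permutations can give). In all, 9 of the 20 regions had an adjusted p below 0.05 in this exact permutation test. The others were chromosomes 6 (0.19; adjusted p = 0.0162), 9 (0.10; adjusted p = 0.0162), 14 (0.11; adjusted p = 0.0162), 16 (0.07; adjusted p = 0.0404), 17 (-0.12; adjusted p = 0.0404) and 19 (0.08; adjusted p = 0.0404), so a difference between TI and TIM was not particular to this stretch. The part of the sequencing run in these differences was not tested.

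**Figure D3:**
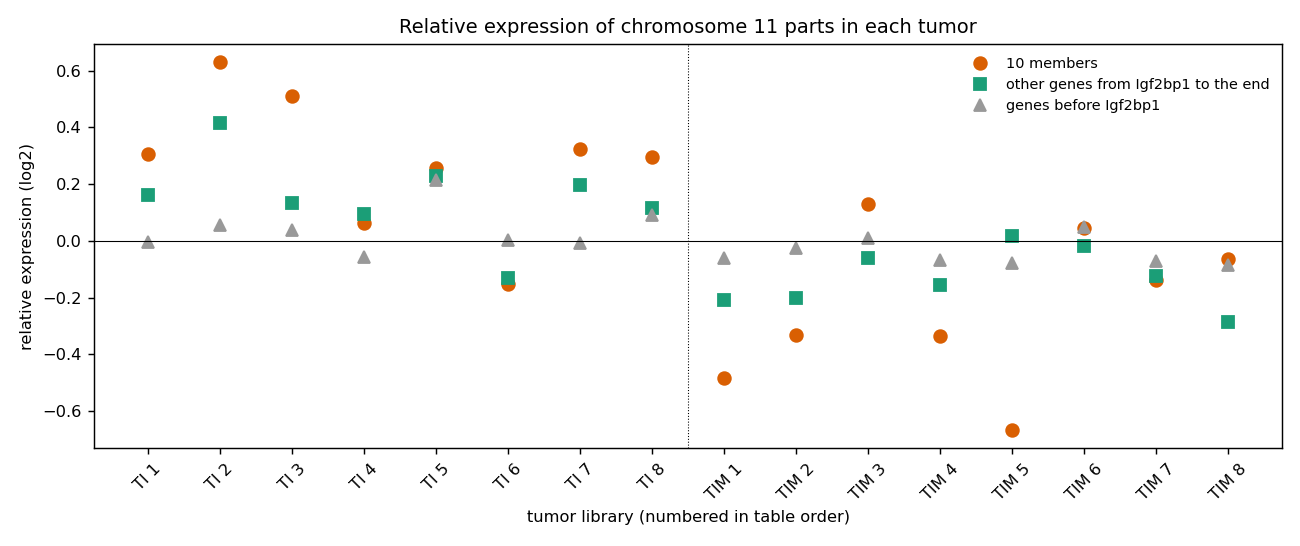
Relative expression (log2 units) of the 10 members, of the other 323 tested genes from Igf2bp1 to the chromosome end and of the 595 genes before Igf2bp1 in each of 16 tumors, with TI left and TIM right of the dotted line. The 323 genes sit between -0.13 and 0.42 in TI and between -0.29 and 0.02 in TIM, and TI 6 is the lowest TI tumor.

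The median over the 10 members ran from -0.15 (TI 6) to 0.63 (TI 2) in TI and from -0.67 (TIM 5) to 0.13 (TIM 3) in TIM. TI 3 was the highest TI tumor in 6 of 10 members and TI 2 in 3, while TI 6 was the lowest in 6. In TIM the lowest level fell in TIM 5 for 5 members, and TIM 6 was the highest for 3. TIM 5 was the lowest TIM tumor over the members but the highest over the other 323 genes of the stretch, so the 2 readings parted there.

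Set against the glands, 6 of the 8 TI tumors had all 10 members above every AG library, while TI 4 had 9 and TI 6 had 8. These counts hold Brca1, which was tested only because tumors reached the filter and was above every AG library in all 8 TI tumors. In TIM the count ran from 3 (TIM 5) to 10 (TIM 6), and in AGM from 0 to 2. Over all tested genes the share above every AG library was 41.4% to 46.5% in the tumors and 39.3% to 45.4% in the AGM glands. Over the other genes of the stretch it was 45.8% (TI 6) to 67.5% (TI 2) in TI and 36.5% (TIM 8) to 48.9% (TIM 6) in TIM.

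Along the chromosome, the TIM against TI difference of the other genes did not begin at Igf2bp1. In the 25 megabases before it, 218 genes had a median log2 fold change of -0.19 and 29.4% were lower, while the 84 genes farthest from it had a median of 0.08 and 9.52% were lower. Within the stretch, 5 intervals with 32 to 103 genes each had medians between -0.26 and -0.36 and 35.2% to 48.5% of genes lower. In TI against AG, 4 of these intervals had medians of 0.30 to 0.36, and the interval from 15 to 20 megabases, which holds Sumo2, Nup85 and Grb2, had a median of 0.00 over 32 genes. Of the 323 genes of the stretch, 133 were lower in TIM than in TI and 13 were higher.

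**Figure D4:**
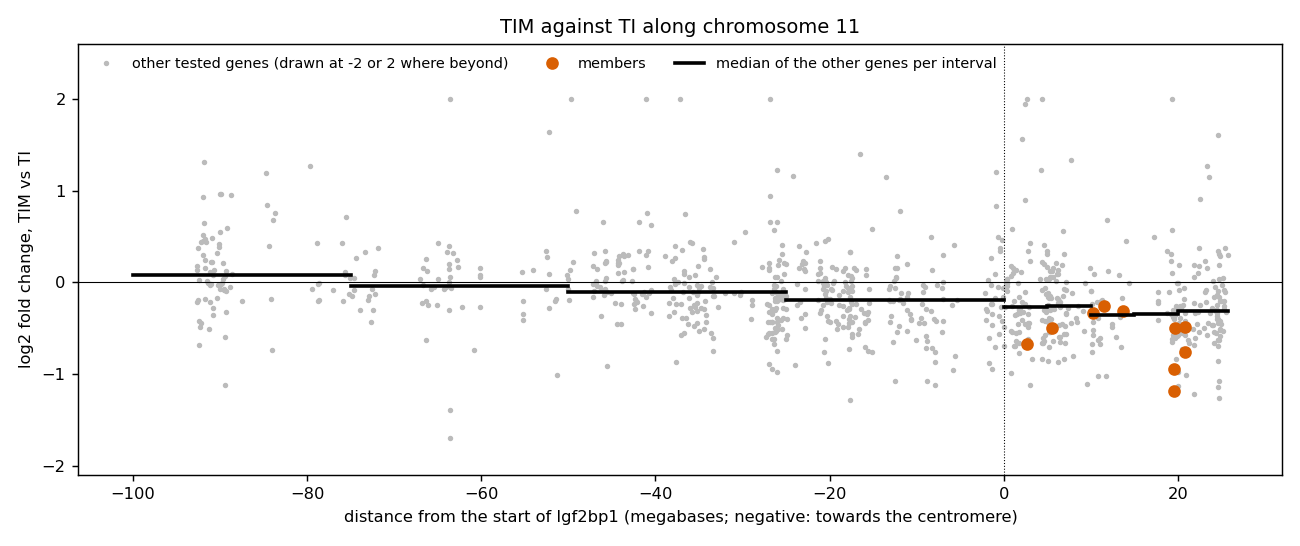
Log2 fold change of TIM against TI for each tested chromosome 11 gene by distance from the start of Igf2bp1 in megabases, with the 10 members in orange and the median of the other genes in each interval as a black bar. The bars step down from 0.08 at the far left to -0.19 just before Igf2bp1 and lie between -0.26 and -0.36 beyond it.

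The nearest tested gene on each side of each member gave 17 genes. In TIM against TI, 9 of 17 were lower and 1 was higher, with a median of -0.43, and in TI against AG 7 rose and 4 fell, with a median of 0.18. Jpt1, next to Sumo2, had 9.60 ± 0.869 FPKM in AG against 74.3 ± 44.2 FPKM in TI (difference 2.57, limma FDR 1.70e-05) and was lower in TIM than in TI by -0.98 (limma FDR 0.0249). Smarcd2, which overlaps Psmc5, fell in TI against AG (-1.37; limma FDR 4.76e-07) where Psmc5 rose. Tmem94, next to Grb2, also fell in TI against AG (-0.88; limma FDR 0.00327). In the whole stretch, the largest falls in TIM against TI among genes with at least 1 FPKM in every tumor were Lrrc45 (-1.26; limma FDR 1.18e-05) and Alyref, an mRNA export adaptor (-1.15; limma FDR 0.00367). The largest positive values were those of Gaa, the lysosomal alpha-glucosidase (1.27; limma FDR 0.0291), and Cnp (0.41; limma FDR 0.216).

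Birc5, which codes for survivin and lies 21.9 megabases beyond Igf2bp1, is a cell cycle gene of the same stretch. It ran from 2.14 to 14.5 FPKM in TI and from 0.0937 to 5.09 FPKM in TIM. TI 3 was the highest TI tumor and TIM 5 the lowest TIM tumor.

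Because several members are made in larger amounts in dividing cells, each was set against the mean level of 6 cell cycle genes outside chromosome 11 (Mki67, Ccnb1, Cdk1, Ccna2, Mcm2 and Pcna), and against the relative expression of the other genes of the stretch. These relations were chosen after the values were seen. On the log2(FPKM + 1) scale these genes averaged 0.99 to 1.08 over the AG glands and 0.57 to 0.73 over the AGM glands, and the tumors spread from 1.36 to 3.47 (TI) and from 0.34 to 2.99 (TIM), so the groups differed in them too. Correlations were therefore taken within TI and within TIM, on levels relative to each library's median gene outside chromosome 11, with 42 relations in all and exact permutation tests over 40320 pairings. The share of all tested genes with relations as strong was not computed. A relation that passed can therefore not be called particular to the members.

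Srsf2 followed the cell cycle genes in TI (n = 8; r = 0.993, exact p = 7.44e-05, adjusted 0.00313; rho = 0.976, exact p = 0.000397, adjusted 0.0120) and had r = 0.924 in TIM (exact p = 0.00213, adjusted 0.0149; rho = 0.810, exact p = 0.0218, adjusted 0.102). Nup85 had r = 0.919 in TI (exact p = 0.000843, adjusted 0.00885; rho = 0.952, exact p = 0.00114, adjusted 0.0120) and r = 0.951 in TIM (exact p = 0.000570, adjusted 0.00799; rho = 0.952, exact p = 0.00114, adjusted 0.0120). Brca1 had r = 0.955 in TI (exact p = 0.000149, adjusted 0.00313; rho = 0.952, exact p = 0.00114, adjusted 0.0120) and r = 0.916 in TIM (exact p = 0.00131, adjusted 0.0110; rho = 0.857, exact p = 0.0107, adjusted 0.0750). Without the 2 tumors farthest from the median cell cycle level, r of these 3 genes stayed between 0.846 and 0.984. Sumo2 had r = 0.818 in TI (exact p = 0.0117, adjusted 0.0546; rho = 0.786, exact p = 0.0279, adjusted 0.107) and r = 0.866 in TIM (exact p = 0.00503, adjusted 0.0264; rho = 0.762, exact p = 0.0368, adjusted 0.119), or 0.616 and 0.812 without the 2 farthest tumors.

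**Figure D5:**
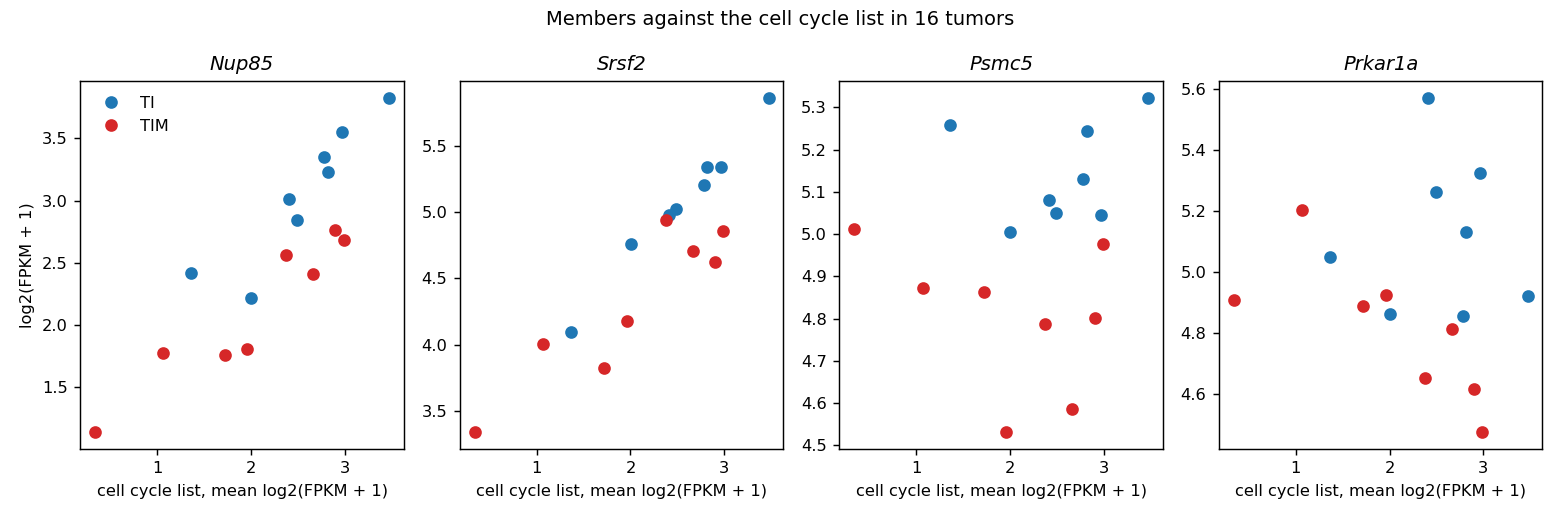
Log2(FPKM + 1) of Nup85, Srsf2, Psmc5 and Prkar1a against the mean log2(FPKM + 1) of 6 cell cycle genes in 8 TI and 8 TIM tumors, 1 point per tumor. Nup85 and Srsf2 climb with the cell cycle genes in both groups, and Psmc5 and Prkar1a do not. Their r values in TI, 0.231 and -0.02, were taken on levels relative to each library's median gene outside chromosome 11, not on the scale drawn.

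The other members did not pass with the cell cycle genes in either group after adjustment. Psmd3 had r = 0.586 in TI (exact p = 0.121, adjusted 0.267; rho = 0.810, exact p = 0.0218, adjusted 0.102), which was 0.9205 without the 2 farthest tumors. Jmjd6 had r = 0.684 in TI (exact p = 0.0601, adjusted 0.158; rho = 0.762, exact p = 0.0368, adjusted 0.119), or 0.771 without them. Psmd12 had r = 0.745 in TIM (exact p = 0.0353, adjusted 0.113; rho = 0.524, exact p = 0.197, adjusted 0.413), or 0.616 without them. Psmc5 had r = 0.231 in TI (exact p = 0.580, adjusted 0.726; rho = 0.381, exact p = 0.360, adjusted 0.581) and r = -0.04 in TIM (exact p = 0.934, adjusted 0.966; rho = 0.143, exact p = 0.752, adjusted 0.902). Prkar1a had r = -0.02 in TI (exact p = 0.966, adjusted 0.966; rho = 0.00, exact p = 1, adjusted 1) and r = -0.68 in TIM (exact p = 0.0680, adjusted 0.168; rho = -0.74, exact p = 0.0458, adjusted 0.128). Without the 2 farthest tumors, Psmc5 gave 0.606 and 0.452 and Prkar1a 0.154 and -0.79.

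Against the other genes of the stretch, 1 member passed, Psmd3 in TI (n = 8; r = 0.940, exact p = 0.00303, adjusted 0.0182; rho = 0.857, exact p = 0.0107, adjusted 0.0750). Its r was 0.658 without the 2 tumors farthest from the median, TI 2 and TI 6 being the extremes of the stretch, and 0.546 in TIM (exact p = 0.160, adjusted 0.319; rho = 0.500, exact p = 0.216, adjusted 0.432). Grb2 had r = 0.825 in TI (exact p = 0.0353, adjusted 0.113; rho = 0.214, exact p = 0.619, adjusted 0.765), which became -0.85 without the 2 farthest tumors, so it rested on them. In TIM, Grb2 had r = 0.787 (exact p = 0.0161, adjusted 0.0677; rho = 0.833, exact p = 0.0154, adjusted 0.0923) and 0.930 without the 2 farthest tumors. Psmd3 also gave 0.930 in TIM without those 2 tumors. Dropping them moved r in TIM from 0.027 to 0.938 for Brca1 and from -0.24 to 0.930 for Nup85. Srsf2 moved from -0.11 to 0.8915 and Prkar1a from -0.35 to -0.76. Psmd12, Jmjd6, Psmc5 and Sumo2 gave 0.784, 0.666, 0.524 and 0.306 without them. No p-value was computed for r without those tumors. The other genes of the stretch and the cell cycle genes were related by r = 0.507 in TI (exact p = 0.190, adjusted 0.363; rho = 0.667, exact p = 0.0831, adjusted 0.205) and by r = -0.29 in TIM (exact p = 0.480, adjusted 0.665; rho = -0.31, exact p = 0.462, adjusted 0.693). Without the 2 tumors farthest from the median cell cycle level, r was 0.917 in TI and 0.040 in TIM, so these values depended on single tumors.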

How the data were processed

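The authors trimmed reads with cutadapt 2.8, aligned them to mm39 with HISAT2 2.1.0, counted them per gene with featureCounts 2.0.0, corrected the counts for sequencing run with ComBat-seq and deposited TMM-scaled FPKM values, with edgeR 3.40 named among the tools. ComBat-seq takes out part of any difference that follows the run. The deposited table also held the authors' own log2 fold changes, p-values and FDR values against AG, which were not used. Reads were recovered from the FPKM steps (100.0% whole within 0.001). The main test was limma 3.58.1 (R 4.3.3) on log2(FPKM + 1), fitted over all 24 libraries and 4 groups on genes with at least 1 FPKM in 3 libraries, with Benjamini-Hochberg FDR over all genes tested. A fold change on this scale understates low genes. The study takes single mice as replicates for its blots and genotyping, but the columns used here cannot be tied to animals, so p-values measure the spread between libraries. Positions were from GENCODE M39 on GRCm39, and 21687 genes matched by ID or symbol. Exact permutation tests used scipy 1.17.1. The members, the gene lists and the tests were chosen with earlier results of these data known. Genes of a list given with single values were the up to 3 with the lowest FDR in TI against AG. Psmb6, Psmd11 and Srsf1 were added because they lie on chromosome 11. Neighbours and 4 further genes of the stretch were named by the size of TIM against TI. Smarcd2 was named outside this rule, as a gene that overlaps Psmc5. Some genes of these lists are not reported here. The statistics were tested on simulated data. Alternatives were another pseudocount, other filters, other library scalings, limma-voom on recovered reads, a spread from 2 groups and leaving out each library.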

Additional observations from a re-analysis of the deposited data

How the results depend on the processing

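Leaving out 1 library at a time gave 7 to 8 members in TI against AG, 2 in each fit of TIM against AG, 0 in each fit of AGM against AG, 7 to 9 in TIM against TI, 4 to 8 in TIM against AGM, 0 to 1 for the difference between the models, and -0.32 to -0.25 for the stretch without the members. The member counts of these fits include Brca1. Of 10171 tested genes, these fits called 4468 to 5454 in TI against AG, 4293 to 5449 in TIM against AG and 1896 to 2923 in AGM against AG, in either direction. They called 1831 to 2788 genes in TIM against TI and 6076 to 6930 in TIM against AGM. The number of members that passed in TIM against AG was 1 with recomputed FPKM and 1 with limma-voom, against 2. In AGM against AG it was 0 without a filter, 0 at 1 FPKM or more in every library (9 members tested, without Brca1), 6 with recomputed FPKM, 6 with limma-voom and 7 when the spread came from AGM and AG alone, against 1.

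Signs changed for values that had not passed. With recomputed FPKM and limma-voom, TIM against AG was -0.11 and -0.11 for Psmd3 and -0.16 and -0.20 for Nup85 (-0.027 with a pseudocount of 0.1), and AGM against AG was -0.32 and -0.38 for Jmjd6 and -0.37 and -0.38 for Prkar1a. The difference between the models became 0.073 and 0.0875 for Psmd3, 0.12 and 0.13 for Psmc5, and 0.15 and 0.16 for Grb2, and with limma-voom 0.19 for Brca1 and 0.028 for Nup85. Without 1 library, TIM against AG ran from -0.0069 to 0.068 for Psmd3 and from -0.084 to 0.15 for Nup85, and the difference between the models from -0.026 to 0.14 for Psmd12 and from -0.0096 to 0.27 for Srsf2. The cause of these changes was not tested.

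Recomputed FPKM moved the median of all tested genes to -0.14 in TIM against AG, -0.34 in AGM against AG, -0.12 in TIM against TI and 0.24 in TIM against AGM, and the calls split into 2684 higher and 4458 lower, 1280 and 4583, 1074 and 2521, and 5470 and 3659, against 2293 and 2897, 1488 and 1420, 1017 and 1315, and 3241 and 3398. With limma-voom the splits were 1525 and 3311, 608 and 3627, 529 and 1806, and 3915 and 2553, and in TI against AG 2048 and 2895 against 2505 and 2822. All 10 members stayed below the median of all genes in TIM against TI and above it in TI against AG under these scalings. No paired analysis was possible because the columns carry no replicate numbers of the labels. The stretch gave -0.04 without a filter and -0.44 with a pseudocount of 0.1, and kept an adjusted exact permutation p below 0.05 under each setting tried.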
